A study of Mus musculus with 12 samples.

Results

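The transcripts described here come from snoRNA host genes, the noncoding genes whose introns carry small nucleolar RNAs. The 10 host genes chosen by name were Gas5, Snhg1, Snhg3, Snhg4, Snhg5, Snhg6, Snhg8, Snhg12, Snhg15 and Zfas1, and 4 of these 10, Gas5, Snhg3, Snhg15 and Zfas1, are rows of the deposited table of 15651 genes. Snhg1, Snhg4, Snhg5, Snhg6, Snhg8 and Snhg12 were not analysed here. Small nucleolar RNAs guide the chemical modification of ribosomal and spliceosomal RNA, box C/D RNAs directing ribose methylation and box H/ACA RNAs directing pseudouridylation. They are released from introns when the host transcript is spliced, and the spliced exons are in many cases degraded in the cytoplasm by nonsense-mediated decay. Host genes are known as genes of growing cells, and several begin transcription within a run of C and T, the terminal oligopyrimidine start shared with ribosomal protein genes.

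RNA was sequenced from c-Kit+ spleen cells of moribund mice, 3 with the genotype Dnmt3a fl/fl, Flt3 ITD/ITD, Mx1Cre (D/F) and 3 with Tet2 fl/fl, Flt3 ITD/ITD, Mx1Cre (T/F), and the age of the mice is not given in the sources used here. All 6 mice thus carried the Flt3 internal tandem duplication on both alleles together with the interferon-inducible Mx1-Cre, which the study used without induction, relying on its leaky expression. The cells from each animal were divided between CCS1477 (inobrodib), an inhibitor of the bromodomains of the histone acetyltransferases p300 and CBP, and its solvent DMSO, and were cultured for 6 hours with SCF, IL6 and IL3, for 12 libraries, 3 in each of 4 groups. D/F cells received 4 µM and T/F cells 2 µM, so dose and genotype cannot be told apart. Values are TPM, transcript numbers scaled by length and to a fixed library total. Levels can therefore be compared between genes, and shifts of a cell's total RNA leave no trace.

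The libraries summed to between 914204 and 931697 TPM, and the number of reads behind a value is unknown. Both libraries of D/F mouse 2 stood apart, with a median gene at 20.0 and 20.4 TPM where the other 10 libraries had 16.1 to 18.8. All 7 progenitor markers (Kit, Flt3, Cd34, Mpo, Elane, Prtn3 and Myb) were detected. Dnmt3a TPM of the D/F libraries (29.3 to 55.7) overlapped that of the T/F libraries (39.9 to 57.2), and Tet2 TPM of the T/F libraries (24.6 to 35.8) overlapped that of the D/F libraries (32.5 to 43.4). A gene-level value does not tell whether the floxed exons are missing.

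None of the 1558 annotated snoRNA and scaRNA genes is a row of the table, so no small RNA has a value of its own. The values are those of the host genes. Whether reads from the small RNAs were counted with their hosts is unknown, since the quantification index is not given in the sources used here. The 4 hosts differ in the class and number of the RNAs they carry. In the GENCODE vM21 annotation of GRCm38, Gas5 (ENSMUSG00000053332, chr1:161034422-161038539, plus strand) has up to 12 exons and 10 annotated small RNA genes on its strand. Zfas1 (ENSMUSG00000074578, chr2:167062934-167065862, plus strand) has up to 5 exons and 3 such genes. Snhg3 (ENSMUSG00000085241, chr4:132348014-132353686, minus strand) carries 2, Snora73a and Snora73b, and Snhg15 (ENSMUSG00000085156, chr11:6525591-6528760, minus strand) carries 1, Snora9, each host with up to 4 exons. One embedded RNA of each host is shown, from the GENCODE transcript sequences, to make the classes visible. Capitals mark, in the box C/D RNAs, the letters TGATGA within the first 20 bases and CTGA within the last 20, and in the box H/ACA RNAs the letters ACA placed 3 bases before the end.
Snord47 (Gas5): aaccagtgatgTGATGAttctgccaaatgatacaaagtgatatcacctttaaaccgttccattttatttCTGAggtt
Snord12 (Zfas1): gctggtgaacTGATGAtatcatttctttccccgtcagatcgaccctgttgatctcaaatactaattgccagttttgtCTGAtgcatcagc
Snora73a (Snhg3): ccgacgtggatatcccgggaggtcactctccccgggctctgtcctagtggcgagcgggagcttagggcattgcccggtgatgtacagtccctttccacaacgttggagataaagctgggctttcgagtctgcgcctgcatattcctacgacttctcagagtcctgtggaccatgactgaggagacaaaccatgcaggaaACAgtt
Snora9 (Snhg15): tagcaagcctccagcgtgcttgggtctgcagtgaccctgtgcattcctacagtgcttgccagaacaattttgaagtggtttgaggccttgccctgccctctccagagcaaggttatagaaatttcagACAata
Of all 1558 annotated snoRNA and scaRNA transcripts, 20.2% held both box C/D letters in these windows and 19.3% held ACA at that place.

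The bases around the annotated starts are shown because of the pyrimidine run for which host genes are known. Each line gives 20 bases either side of a RefSeq start of GRCm38.p6 on the sense strand, with the longest run of C and T lying wholly inside the window in capitals.
Gas5, upstream start, chr1:161034581-161034621: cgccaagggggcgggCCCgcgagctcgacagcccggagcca
Gas5, downstream start, chr1:161035146-161035186: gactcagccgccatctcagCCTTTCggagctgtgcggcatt
Snhg3, chr4:132353666-132353706: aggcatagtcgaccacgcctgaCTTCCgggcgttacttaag
Zfas1, chr2:167062914-167062954: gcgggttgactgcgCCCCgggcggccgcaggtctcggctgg
Snhg15, chr11:6528740-6528780: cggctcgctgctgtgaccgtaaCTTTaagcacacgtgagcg
Of the starts shown, the downstream start of Gas5 was the one with a C at the start followed by at least 4 more pyrimidines. That feature was present in 2.3% of the 10624 promoters of genes in the table and in 22.0% of the 59 promoters of ribosomal protein genes. These shares count the first listed start of each gene. The first listed start of Gas5 is the upstream one, so by that rule none of the 4 hosts had the feature. Of the 4 hosts, Snhg15 alone held CACGTG, the palindromic E-box recognised by Myc and related factors, in the 250 bases before to 50 after its start (chr11:6528711-6529010, minus strand), where the motif, in capitals, began 11 bases after the start base. CACGTG was present in 9.8% of the promoters of genes in the table. Among the further noncoding hosts described below, Snhg9 also held it, beginning at -170 from its start base. Snhg11, Snhg16 and Snhg17 did not hold it. A relation between this motif and the CCS1477 response was not tested.
Snhg15 promoter: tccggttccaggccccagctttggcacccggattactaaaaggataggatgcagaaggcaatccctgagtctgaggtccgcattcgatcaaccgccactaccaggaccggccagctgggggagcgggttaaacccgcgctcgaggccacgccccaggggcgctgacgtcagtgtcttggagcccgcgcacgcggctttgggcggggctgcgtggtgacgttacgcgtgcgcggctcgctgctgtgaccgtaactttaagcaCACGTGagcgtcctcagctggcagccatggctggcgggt

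With DMSO, Gas5 and Snhg3 were among the most abundant transcripts of the leukemic cells, ranking between 181 and 249 of the genes in a library. Their TPM overlapped, at 524 to 624 for Gas5 and 487 to 648 for Snhg3 over the 6 DMSO libraries, and these neighbours in the order did not differ beyond their spread. Zfas1 followed at 187 to 237 TPM and Snhg15 at 89.5 to 116 TPM, each below the range of the gene above it.

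The genotypes did not differ detectably in any of the 4 hosts in DMSO. The log2 fold change of T/F over D/F was -0.06 (95% interval -0.34 to 0.22) for Gas5, 0.05 (-0.33 to 0.42) for Snhg3, 0.10 (-0.22 to 0.41) for Zfas1 and 0.00 (-0.35 to 0.36) for Snhg15. Of all genes tested in this comparison, limma with Benjamini-Hochberg adjustment called 0.0328%, or 5 genes at an adjusted p under 0.05, and 939 had an unadjusted p under 0.05.

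The host transcripts were lower after CCS1477, Snhg15 most and Snhg3 least, and each of the 4 was below its DMSO level in all 6 mice. In all, 3 of the 4 were below every DMSO library in D/F cells, where 16.7% of all genes tested were, and 4 of 4 in T/F cells, where 22.6% were. A limma fit called 2 of 4 lower in D/F cells, against 6.51% of all genes tested called lower (11.6% called in either direction), and 4 of 4 lower in T/F cells, against 17.6% (43.4% in either direction). With the mouse as a block, 3 of 4 were called in D/F cells, against 18% of genes called lower. Over both genotypes 4 of 4 were called lower, against 19.6%. The D/F calls made without the block, those of Snhg15 and Zfas1, depended on which mice were included. In mouse 2 both were lower as well, at 0.348 and 0.656 of their DMSO level. The fits with a mouse left out do not pair the cells of a mouse. Without mouse 1 or without mouse 3, limma called 0 of the 4 hosts and 0 genes in the whole table. In these 2 fits 2494 and 2330 genes, among them 2 of the 4 hosts each time, had an unadjusted p under 0.05. Without mouse 2, limma called 2 of the 4 hosts and 3739 genes.

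**Figure D1:**
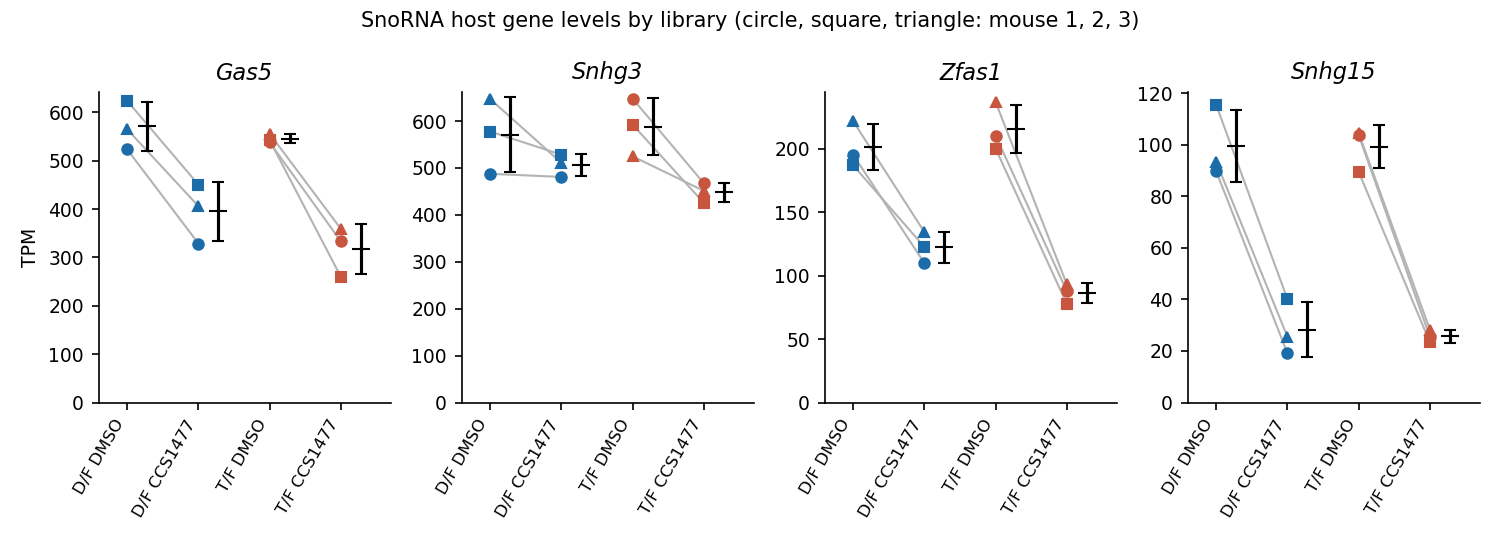
TPM of Gas5, Snhg3, Zfas1 and Snhg15 in each library, by group, on axes that start at 0. Symbols are mice, grey lines join the DMSO and CCS1477 cells of a mouse, and black bars give the mean and SD of 3 libraries. All lines fall, and the groups overlap for Snhg3 in D/F cells.

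Gas5, a box C/D host whose spliced RNA has been studied as a growth arrest transcript, was between 0.479 and 0.722 of its DMSO level in the 6 mice. In D/F cells its TPM in mice 1, 2 and 3 was 524, 624 and 565 with DMSO and 329, 450 and 406 with CCS1477. In T/F cells it was 538, 542 and 556 with DMSO and 333, 260 and 359 with CCS1477. Every CCS1477 library lay below every DMSO library of its genotype, and the T/F DMSO libraries lay closest together. The D/F mean was 571 ± 50.5 without and 395 ± 61.6 TPM with the inhibitor, and the T/F mean 545 ± 9.29 and 317 ± 51.5 TPM (SD, n = 3 mice each). Gas5 fell by 0.79 ± 0.13 on the log2 scale in T/F (SE, limma adjusted p = 0.00485). Its D/F log2 fold change was -0.54 ± 0.18, with a limma adjusted p of 0.0969 that became 0.0182 with the mouse as a block.

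Zfas1, the box C/D host that carries Snord12, fell in both genotypes. In D/F cells its TPM was 195, 187 and 222 with DMSO and 110, 123 and 134 with CCS1477. In T/F cells it was 210, 200 and 237 with DMSO and 87.6, 77.5 and 93.0 with CCS1477. Treated and untreated libraries of a genotype were separate, and the 3 T/F libraries with CCS1477 lay below the 3 D/F libraries with CCS1477. In D/F the change was -0.72 ± 0.16 on the log2 scale (limma adjusted p = 0.0359), and in T/F -1.32 ± 0.10 (limma adjusted p = 0.000616). The D/F call was lost without mouse 1 (limma adjusted p = 0.311) and without mouse 3 (0.300), fits in which 2 mice remained.

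Snhg3, the box H/ACA host of the Snora73 pair, moved least. In D/F cells its TPM was 487, 578 and 647 with DMSO and 481, 528 and 511 with CCS1477. In T/F cells it was 648, 592 and 525 with DMSO and 467, 425 and 451 with CCS1477. The D/F groups overlapped, since the DMSO library of mouse 1 lay near the level of the CCS1477 libraries, and the T/F groups did not. D/F cells showed a log2 fold change of -0.16 (95% interval -0.55 to 0.23, limma adjusted p = 0.544), and T/F cells one of -0.39 ± 0.10 (limma adjusted p = 0.0207). The T/F call was lost without mouse 1 (limma adjusted p = 0.0947) and without mouse 2 (0.158). The log2 fold change over both genotypes, -0.28 ± 0.09 (limma adjusted p = 0.0273), was called, but not after quantile normalization (0.0521) or without D/F mouse 3 (0.0665) or T/F mouse 1 (0.0964), 2 (0.115) or 3 (0.0635).

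Snhg15, the box H/ACA host of Snora9, fell furthest in both genotypes. The ratio of CCS1477 to DMSO was 0.213, 0.348 and 0.274 in D/F mice 1, 2 and 3 and 0.245, 0.261 and 0.270 in T/F mice. In D/F cells its TPM was 89.8, 116 and 93.4 with DMSO and 19.2, 40.2 and 25.6 with CCS1477. In T/F cells it was 104, 89.5 and 105 with DMSO and 25.4, 23.3 and 28.3 with CCS1477. The groups were far apart, and D/F mouse 2 had both the highest DMSO and the highest CCS1477 value. Its rank among the genes of a library moved from between 1385 and 1944 with DMSO to between 4838 and 7422 with CCS1477. D/F cells changed by -1.83 ± 0.28 on the log2 scale (limma adjusted p = 0.0157) and T/F cells by -1.91 ± 0.10 (limma adjusted p = 0.000336). Of all genes tested, 1.8% in D/F cells and 0.9% in T/F cells had a lower log2 fold change. The D/F call was lost without mouse 1 (limma adjusted p = 0.145) and without mouse 3 (0.220), at log2 fold changes of -1.67 and -1.84.

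An exact two-sided permutation test of the TPM of 3 libraries against 3 gave p = 0.1, the smallest it can give, for Gas5, Zfas1 and Snhg15 in both genotypes and for Snhg3 in T/F, and p = 0.3 for Snhg3 in D/F.

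Because the falls were unequal, the make-up of the host transcripts shifted towards Snhg3. The summed TPM of the 4 genes was 1296 to 1527 in the DMSO libraries and 786 to 1142 in the CCS1477 libraries. Snhg3 made up 36.9% to 43.2% of that sum with DMSO and 46.3% to 54.1% with CCS1477, while Snhg15 made up 6.1% to 7.7% and 2.0% to 3.5%. The Zfas1 share was 12.4% to 16.7% with DMSO and 9.6% to 12.5% with CCS1477, and that of Gas5 overlapped between treatments (35.9% to 41.5% and 33% to 39.5%). With CCS1477, Snhg3 was above Gas5 in each of the 6 libraries, whereas with DMSO the order differed between mice.

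**Figure D2:**
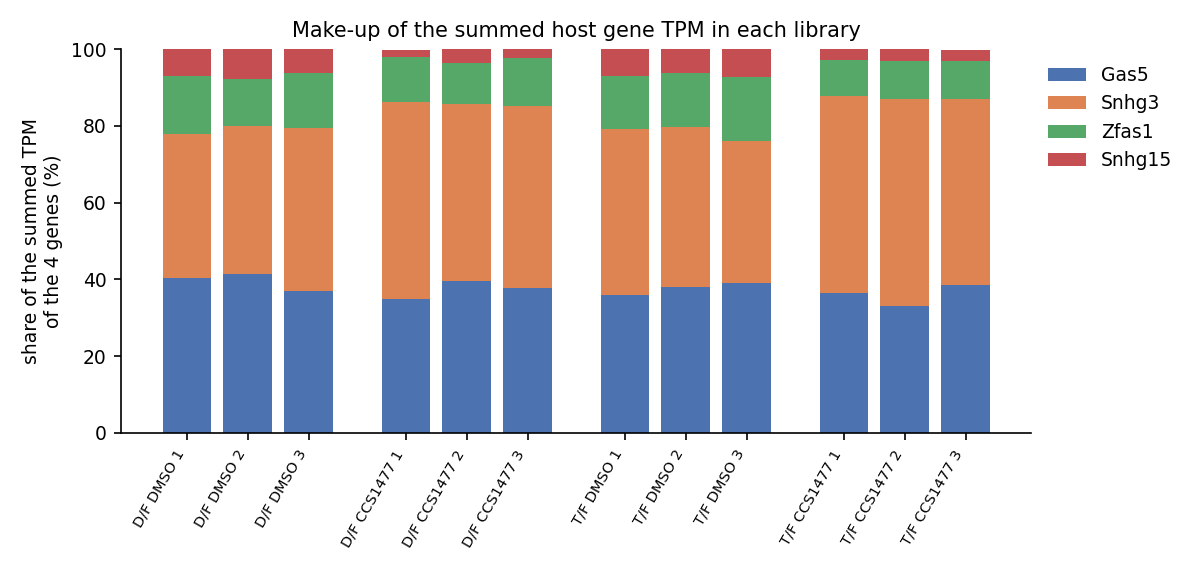
Share of the summed TPM of Gas5, Snhg3, Zfas1 and Snhg15 held by each gene, in percent, 1 bar per library with its group and mouse number. The Snhg3 band is widest in the CCS1477 libraries, at 46.3% to 54.1%, and the Snhg15 band is thinnest there.

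Markers of the cell types in the sample moved with CCS1477 as well. The summed TPM of the 7 progenitor markers was 3182 to 8682 with DMSO and 814 to 3769 with CCS1477 in D/F cells, ranges that overlapped. In T/F cells it was 3520 to 5429 against 1406 to 2544, without overlap. The table held 6 of 7 monocyte and macrophage markers. Their sum was 453 to 1261 with DMSO and 168 to 586 with CCS1477 in D/F, which overlapped. It was 359 to 538 and 189 to 292 in T/F, which did not. The 2 mast cell markers in the table of 6 listed summed to 35.6 to 111 TPM with DMSO and 6.38 to 13.4 with CCS1477 in D/F, and overlapped in T/F (18.3 to 42.1 and 6.92 to 19.2). The 3 of 6 B cell markers in the table overlapped in D/F (25.8 to 51.8 TPM with DMSO and 20.9 to 49.6 with CCS1477), and in T/F their sum was 49.8 to 59.0 and then 104 to 132, with 1 of the 3 called higher in limma and 2 called lower. The sums of the 8 neutrophil markers overlapped between treatments in both genotypes (1713 to 10017 TPM over the 12 libraries), as did those of the 6 of 7 erythroid markers (10.8 to 33.6 TPM) and the 3 of 6 T cell markers (13.8 to 25.7 TPM) in the table. The 5 of 6 megakaryocyte markers in the table overlapped in D/F (45.5 to 230 TPM with DMSO and 32.5 to 84.1 with CCS1477) and not in T/F (63.2 to 68.3 and 46.6 to 47.5). No marker that was in the table was at 0 in all libraries. The part of these shifts in the host gene results was not tested, and in bulk samples fewer cells of a type and less RNA per cell cannot be told apart.

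The response of Zfas1 was larger in T/F cells than in D/F cells by the unadjusted test, and no gene of the table passed the adjusted one. Its ratio of CCS1477 to DMSO was 0.563, 0.656 and 0.606 in the D/F mice and 0.416, 0.387 and 0.393 in the T/F mice, which do not overlap. The difference of the log2 fold changes was -0.60 (95% interval -0.98 to -0.22), with an unadjusted limma p of 0.00555 and an adjusted p of 1. With the mouse as a block these became 0.000708 and 0.170. Of all genes tested 0% passed the adjusted limit with or without the block, and 659 genes (4.23%) without it and 2293 genes (14.7%) with it had an unadjusted limma p under 0.05.

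The intervals of the difference for the other 3 hosts included 0, at -0.72 to 0.22 for Gas5, -0.61 to 0.16 for Snhg3 and -0.78 to 0.62 for Snhg15. In the CCS1477 libraries themselves, T/F cells had less Zfas1 than D/F cells by -0.50 on the log2 scale, with an unadjusted limma p of 0.0073 and an adjusted p of 0.284. None of the 4 hosts was called there, where 0.0329% of all genes tested were, which is 5 genes, and 1643 had an unadjusted limma p under 0.05. T/F cells received 2 µM and D/F cells 4 µM, so a difference by genotype cannot be told apart from one by dose.

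Of 14 further genes listed as noncoding hosts, 4 are in the table, and 3 of these 4 were lower with CCS1477 in all 6 mice. Meg3 and Mir17hg, which are listed but not in the table, hold no annotated snoRNA on their strand. Over both genotypes 3 of the 4 were called lower, against 19.6% of all genes tested. Snhg16, which carries the box C/D RNAs Snord1a, Snord1b and Snord1c, had D/F means of 35.0 TPM with DMSO and 14.5 with CCS1477 (log2 fold change -1.23, limma adjusted p = 0.0183) and T/F means of 36.5 and 13.5 TPM (-1.38, limma adjusted p = 0.00121). Snhg17 had D/F means of 40.4 and 12.9 TPM (-1.60, limma adjusted p = 0.014) and T/F means of 40.1 and 13 TPM (-1.57, limma adjusted p = 0.00168). Both D/F calls were lost without mouse 1 (limma adjusted p = 0.153 for Snhg16 and 0.128 for Snhg17) and without mouse 3 (0.214 and 0.202). Snhg9, the host of the box H/ACA RNA Snora78, had a mean of 32.9 with DMSO and 20.5 TPM with CCS1477 in D/F (limma adjusted p = 0.181), and in T/F 33.2 and 15.3 TPM (limma adjusted p = 0.0107, or 0.0697 without mouse 3).

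Snhg11, which GENCODE vM21 annotates as protein coding, was the exception among these 4, higher with CCS1477 in all 6 mice. In D/F cells its TPM was 16.5, 23.8 and 15.6 with DMSO and 21.1, 27.3 and 19.4 with CCS1477, and in T/F cells 16.5, 15.9 and 18.6 with DMSO and 20.0, 22.1 and 19.8 with CCS1477. The log2 fold change of 0.27 had a limma adjusted p of 0.455 in D/F and of 0.049 in T/F. The T/F call was lost with the mouse as a block (0.0727), without mouse 1 (0.200) and without mouse 2 (0.279), and the adjusted p was 0.0501 to 0.291 under 6 alternatives of the fit. Over both genotypes Snhg11 had a limma adjusted p of 0.0771, and with the mouse as a block it was called higher (0.00581, at a log2 fold change of 0.27 with a 95% interval of 0.13 to 0.41).

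**Figure D3:**
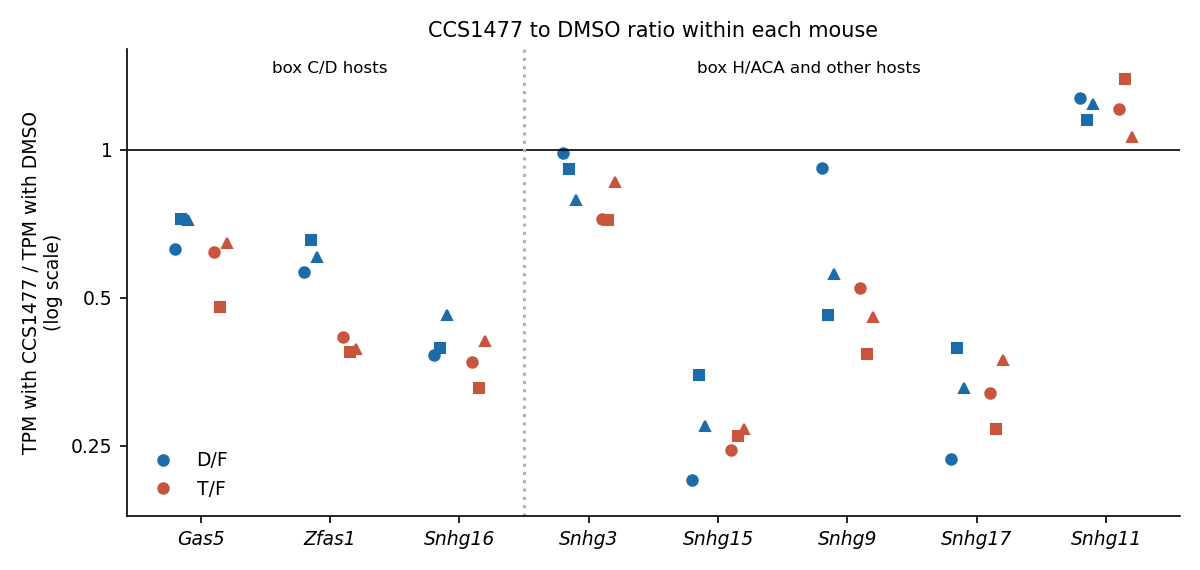
TPM with CCS1477 divided by TPM with DMSO within each mouse, on a log scale, for the 4 host genes and the 4 further ones listed that are in the table, with hosts of box C/D RNAs to the left of the dotted line. Blue is D/F, red is T/F, and circle, square and triangle are mice 1, 2 and 3. Snhg15 and Snhg17 are lowest, Snhg3 is nearest to 1 of those below it, and Snhg11 is above 1 in all 6 mice.

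Of the 4 hosts, 3 lie beside or within a protein-coding gene. Rcc1, which encodes the nucleotide exchange factor for the GTPase Ran, lies on the same strand as Snhg3 with a start 81 bases away, and the annotated spans overlap, so reads of shared sequence could have been split between both genes. Rcc1 TPM was 98.4, 85.0 and 137 with DMSO and 60.1, 45.0 and 73.0 with CCS1477 in D/F, and 119, 117 and 129 with DMSO and 63.4, 62.5 and 55.8 with CCS1477 in T/F. On the log2 scale Rcc1 changed by -0.83 in D/F (limma adjusted p = 0.0851, or 0.00824 with the mouse as a block) and by -1.0 in T/F (limma adjusted p = 0.000639), beside -0.16 and -0.39 for Snhg3. The difference between the changes of both genes was not tested.

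Znfx1, an RNA helicase gene on the strand opposite Zfas1 with a start 81 bases away, changed by -0.34 in D/F (limma adjusted p = 0.293) and fell by 0.41 in T/F (limma adjusted p = 0.0385) on the log2 scale. The T/F call was lost without any 1 of the mice (limma adjusted p = 0.0735, 0.234 and 0.0559 without mouse 1, 2 and 3). Zbtb37, a zinc finger gene on the strand opposite Gas5 with a start 427 bases away, was at 10.1 to 14.3 TPM in all 12 libraries and was not called in either genotype (log2 fold changes of 0.12 and 0.07, the latter of the opposite sign under both rescalings tried). The library kit marks strand, but whether the quantification used it is not given in the sources used here, and without strand the reads of overlapping opposite genes cannot be told apart. Snhg15 has no annotated neighbour starting within 2000 bases.

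**Figure D4:**
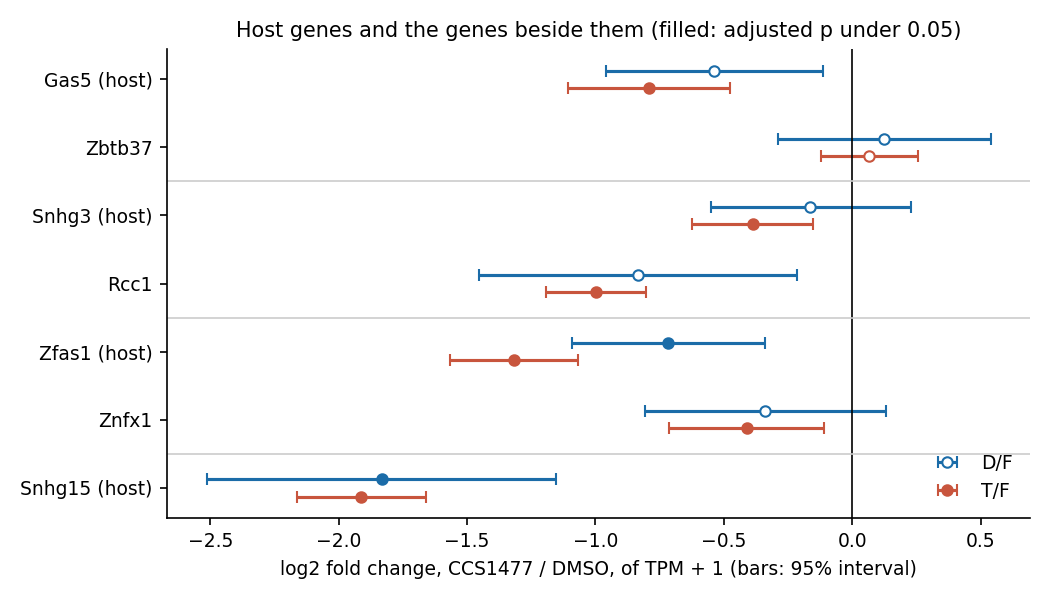
log2 fold change of CCS1477 over DMSO, of TPM + 1, with its 95% interval, for each host gene and the protein-coding gene beside it. Blue is D/F, red is T/F, and filled points passed an adjusted p of 0.05 in limma. Rcc1 lies further below 0 than Snhg3, and both intervals of Zbtb37 include 0.

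Transcripts of the proteins that bind snoRNAs into particles were lower after CCS1477 as well. All 4 core proteins of box C/D particles were called lower over both genotypes, where 19.6% of all genes tested were called lower and 25.8% higher, led by Nop56 (-1.24 on the log2 scale, limma adjusted p = 1.05e-06) and Nop58 (-1.27, limma adjusted p = 1.21e-05). All 4 core proteins of box H/ACA particles were called lower too, led by the pseudouridine synthase Dkc1 (-2.14, limma adjusted p = 1.55e-07) and Gar1 (-1.33, limma adjusted p = 0.00044). Within D/F alone 2 of 4 of each kind were called lower, against 6.51% of all genes tested, and with the mouse as a block 4 of 4 for box C/D and 3 of 4 for box H/ACA, against 18%. Within T/F 4 of 4 of each kind were called lower, against 17.6%. Of 16 assembly factors 9 were called lower and 2 higher over both genotypes, against the same 19.6% and 25.8% of all genes. Among the lower were Nolc1, a nucleolar chaperone (-1.89), and Naf1, which loads box H/ACA particles (-1.45), and the higher were Pih1d1 (0.39) and Tent4b (0.29).

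The protein-coding genes that host snoRNAs had a median change near 0. The 227 annotated in the table had a median log2 fold change of -0.03 over both genotypes, beside 0.07 for all genes tested. Of these 227, 61 (26.9%) were called lower and 44 (19.4%) higher, against 19.6% and 25.8% of all genes. More of them were called lower than higher, the reverse of all genes in this fit. The all-gene balance varied. In T/F alone 3935 genes were called higher and 2685 lower, and in D/F alone 796 and 1009. With rescaling to the median gene, 3606 were called higher and 3493 lower over both genotypes. Dkc1 and Gnl3, a nucleolar GTPase of stem cells (-2.61), were among the lower, and Gsk3b (0.72) and Ralgps1 (1.67) among the higher. In a list of 47 protein-coding hosts written by hand, most of which are also annotated as such, the median was -0.04. Of these 47, 17 (36.2%) were called lower, Ppan (-2.42) and Dkc1 leading, against 19.6% of all genes. The 4 (8.51%) called higher, against 25.8%, included Prpf39 (0.40) and Rps2 (0.23). The 12 annotated hosts of other kinds, which include the 4 host genes, Snhg9, Snhg16 and Snhg17, had a median of -0.86, with 9 lower and 0 higher in limma (0 higher with the mouse as a block as well, and 1 above 0 by the sign of its log2 fold change). Cct6a (-0.84, limma adjusted p = 0.00924) is among these 9 and also among the 17 called lower in the list written by hand. Of the 12, 2410006H16Rik was the 1 above 0 over both genotypes (0.03). It rose from 118 to 151 TPM in D/F (limma adjusted p = 0.466) and fell from 119 to 99.9 TPM in T/F (0.0475). In D/F alone 2 of the 12 were above 0, this gene (0.31) and Gm15832 (0.30, limma adjusted p = 0.482), and in T/F all 12 were below 0. The difference between the kinds of host was not tested.

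**Figure D5:**
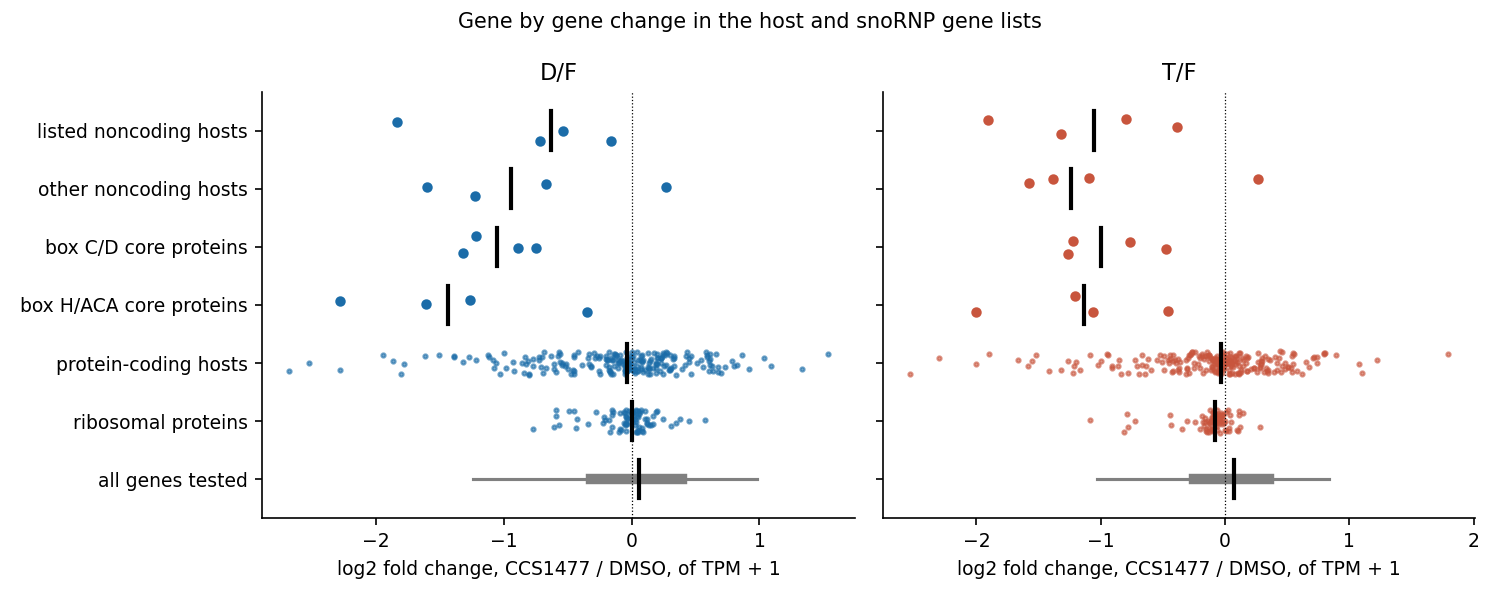
log2 fold change of CCS1477 over DMSO, of TPM + 1, for each gene of the lists, with D/F on the left and T/F on the right. Points are genes, black bars are medians, and the last row gives the median, quartiles and 5th to 95th percentiles of all genes tested. Noncoding hosts and the core proteins lie mostly below 0, while protein-coding hosts and ribosomal proteins centre near 0.

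Ribosomal protein genes are known for the pyrimidine start, which among the host starts shown was present at the downstream start of Gas5. Of 80 cytosolic ribosomal protein genes 11 were called lower over both genotypes, led by Rpl27a (-0.78) and Rpl12 (-0.85), and 3 were called higher, among them Rplp0 (0.20) and Rps2 (0.23). Both shares (13.8% and 3.75%) were below those of all genes, 19.6% and 25.8%. The median log2 fold change was -0.03. Both of these calls were lost when libraries were rescaled to their median gene (limma adjusted p = 0.178 for Rplp0 and 0.253 for Rps2), and with single mice left out (0.0516 to 0.0813 for Rplp0 without D/F mouse 1 or 3 or T/F mouse 1 or 2, and 0.0501 to 0.0742 for Rps2 without D/F mouse 1 or 3 or any T/F mouse). Of 20 factors of nonsense-mediated decay, the pathway that removes many spliced host transcripts, 7 were called higher and 6 lower (35% and 30%), beside 25.8% and 19.6% of all genes. Upf3a (0.77) and Pnrc2 (0.55) were among the higher and Gspt1 (-0.70) and Eif4a3 (-0.61) among the lower, and the median was 0.01.

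Myc, the growth-promoting transcription factor, went from 300 to 468 TPM down to 17.8 to 20.7 TPM in D/F cells and from 230 to 311 down to 19.3 to 27.1 TPM in T/F cells. On the log2 scale this is a change of -4.21 in D/F (limma adjusted p = 0.00131, or 0.0771 without mouse 1 and 0.173 without mouse 3) and of -3.45 in T/F (limma adjusted p = 0.000311).

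Over the 12 libraries the levels of the 4 hosts were related, with Pearson correlations of log2(TPM + 1) between 0.759 (Snhg3 and Snhg15) and 0.939 (Gas5 and Zfas1). The libraries share mice and treatments, so these values describe the table and carry no p. The 5 genes most like the mean of the 4 hosts were Taf1d (r = 0.989, n = 12 libraries), Eif2b3 (0.979), Champ1 (0.979), Tlcd1 (0.978) and Trnt1 (0.977). Taf1d, a subunit of the factor that recruits RNA polymerase I, is itself annotated as a protein-coding host with 8 snoRNA genes.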

How the data were processed

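The authors deposited TPM per Ensembl gene, labelled as Kallisto output, with mm10 named in the submitters' processing notes, and the paper names AltAnalyze. Index and strand setting are not given in the sources used here. The labels name both ribosomal RNA depletion and an mRNA library kit. No gene of the table has a highest value under 2 TPM. TPM keeps no read counts, so depth limits are unknown and precision is the spread between mice.

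A gene whose mean reached 1 TPM in a compared group was tested with limma 3.58.1 (R 4.3.3) on log2(TPM + 1), eBayes without trend, two-sided, Benjamini-Hochberg adjusted over all genes tested. This scale understates changes of low genes. Calls required an adjusted p under 0.05 and no minimum fold. The contrasts were CCS1477 against DMSO in D/F, in T/F and over both with genotype as covariate, the difference of both responses in a fit of 4 groups, and T/F against D/F in either treatment. The fits were tested on simulated data.

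By the labels, equal numbers mark the CCS1477 and DMSO cells of 1 mouse. Their deviations from group means correlated at 0.354 to 0.669 across genes, and those of different mice at no more than 0.141, so the mouse was fitted as a block as an alternative.

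Host genes and lists were chosen with earlier results of these data known. Named are all host genes, their neighbours within 2000 bases or overlapping, up to 2 genes per direction and list by adjusted p over both genotypes, and the 5 genes most like the hosts (mean of at least 5 TPM). Snhg11, the exceptions named, 2410006H16Rik, Gm15832, Tsc1, Akt1s1 and Larp4 were described after their values were seen. Start windows and promoters are from RefSeq GRCm38.p6, and all 4 host genes matched.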

Additional observations from a re-analysis of the deposited data

How the results depend on the processing

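The direction of the CCS1477 response of the 4 host genes held in both genotypes without a filter, with a filter at 5 TPM, a pseudocount of 0.1, rescaling to the median gene, quantile normalization, a shared fit of 4 groups, the mouse as a replicate block and each mouse left out. Gas5 in D/F became called under rescaling, the shared fit and the block, and Snhg3 over both genotypes lost its call under quantile normalization. The cause was not tested.

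Above 2-fold, 1 host was called in D/F, 2 in T/F and 2 over both, all lower. Of all genes tested, 1128 (7.28%), 1118 (7.33%) and 1371 (8.8%) were called in either direction. Those called lower were 714 (4.61%), 717 (4.7%) and 888 (5.7%). In D/F, 1805 genes were called (796 higher, 1009 lower), 2846 with quantile normalization (1552 higher, 1294 lower) and 4940 in the shared fit. In T/F 6620 became 3713 in the shared fit. The block, which pairs the cells of each mouse, raised the D/F count to 6098 and changed no call among the 4 hosts other than that of Gas5 in D/F.

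Leaving out 1 mouse gave 0 to 2 hosts and 0 to 3739 genes called in D/F, and 3192 to 5122 genes in T/F. These fits have 2 mice a group. Between genotypes, 5 genes in DMSO became 9 with the filter at 5 TPM, with rescaling and with quantile normalization, 20 in the shared fit, and 4 to 9 with 1 mouse left out. With CCS1477, 5 became 71 in the shared fit and 2 to 27 with 1 mouse left out.

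Signs near 0 turned. The T/F change of Zbtb37 became -0.008 with rescaling and -0.009 with quantile normalization (log2). With 1 mouse left out, T/F against D/F in DMSO ranged from -0.123 to 0.004 for Gas5, from -0.061 to 0.143 for Snhg3 and from -0.068 to 0.112 for Snhg15, with CCS1477 from -0.314 to 0.201 for Snhg15, and the Snhg15 difference of responses from -0.246 to 0.089. TPM keeps no depth, so the smallest detectable change is set by 3 mice a group.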

Other observations

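Noncoding RNAs that host no snoRNA did not move in 1 direction. Of 4 in the table, Morrbid, a regulator of myeloid cell lifespan, fell from 86.4 to 22.4 TPM in D/F (limma adjusted p = 0.0386) and from 87.7 to 40.5 TPM in T/F (limma adjusted p = 0.000907). Tug1 was called higher over both genotypes (log2 fold change 0.44, limma adjusted p = 0.000636). Firre (0.30, limma adjusted p = 0.26) and Hotairm1 (0.49, limma adjusted p = 0.179) were not called.

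Of 17 genes that control mTORC1 and the translation of pyrimidine-start mRNAs, 4 (23.5%) were called lower and 3 (17.6%) higher over both genotypes, near the 19.6% and 25.8% of all genes tested, with a median log2 fold change of 0.01. Larp1, which binds the cap of such mRNAs, fell by 0.89 on the log2 scale (limma adjusted p = 0.000235), and Cnbp by 1.00 (limma adjusted p = 1.6e-05). Tsc2 (0.42, limma adjusted p = 0.000289) and Eif4ebp2 (0.37, limma adjusted p = 0.000433), which restrain mTORC1 or cap-dependent translation, were higher. Tsc1 was also called higher (0.61, limma adjusted p = 0.00593). Akt1s1 (-0.43, limma adjusted p = 0.00744) and Larp4 (-0.59, limma adjusted p = 0.000853) were also called lower.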
